A study of Mus musculus with 6 samples.

Results

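The immunoreceptors of myeloid cells that signal through tyrosine motifs were examined in mouse bone marrow-derived macrophages (BMMs) on the way to osteoclasts. The set was a list of gene symbols: 40 genes were listed, and 38 of them have a row among the 15982 genes of the table (Siglec15 and Lilra5 were not analysed here). They comprise 2 adaptors, 17 activating receptors, 12 inhibitory receptors, 4 phosphatases and docking proteins that inhibitory receptors recruit, and 3 related genes outside these roles. Rows were taken by symbol and not by any measured value, though the list was drawn up with earlier results of these data known. The Ctrl group came from control mice and the Bub1 cKO group from mice in which Bub1, a kinase of the mitotic checkpoint, was deleted in myeloid cells only. The strain, the age, the alleles and the promoter that drives the deletion were not given in the sources used here. In all 6 samples, 3 per genotype, M-CSF at 20 ng/ml was given for 3 days and then M-CSF at 20 ng/ml with RANKL, the cytokine that induces osteoclasts, at 50 ng/ml for 2 days. Sequencing libraries were 3' tag libraries from 25 ng of total RNA. Nothing in the labels says whether the 3 replicates came from separate animals, so the spread behind the p-values is that between libraries and may be technical.

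An ITAM is a stretch of a cytoplasmic tail with a pair of tyrosines. When a receptor is bound, Src family kinases phosphorylate these tyrosines, the kinase Syk docks on them, and phospholipase C gamma and calcium signals follow. An ITIM holds a single tyrosine and, once phosphorylated, recruits the phosphatases SHP-1 (gene Ptpn6), SHP-2 (Ptpn11) or SHIP1 (Inpp5d), which remove the signal. Most activating receptors of myeloid cells have no ITAM of their own and pair in the membrane with DAP12 (Tyrobp) or the Fc receptor gamma chain (Fcer1g). In osteoclast precursors these adaptors supply the costimulation that RANKL needs to induce Nfatc1, the master transcription factor of osteoclasts.

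The motifs that define the roles are shown as the coding sequence of the reference transcripts (GENCODE M21, GRCm38), for the adaptors and for receptors that the results turn on. The pattern taken for an ITIM was a tyrosine with serine, isoleucine, valine or leucine 2 residues before it and isoleucine, valine or leucine 3 residues after it. For an ITAM it was a pair of tyrosines, each followed 3 residues later by leucine or isoleucine, with 6 to 12 residues between these units. Capitals mark the codons of these residues.
Tyrobp ITAM: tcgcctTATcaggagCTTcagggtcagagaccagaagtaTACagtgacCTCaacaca
Fcer1g ITAM: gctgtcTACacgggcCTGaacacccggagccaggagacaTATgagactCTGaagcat
Cd72 ITIM, membrane-distal: gacgctATCacgTATgcagacCTGcgcttt
Cd72 ITIM-like, membrane-proximal: ggggaaCTCaccTACgagaatGTGcaagtg
Clec12a ITIM: gaagaaATTgttTATgcaaatCTCaaaatc
Clec4a2 ITIM: tcagaaATCactTATgcagaaGTGaagttc
Pirb ITIM: caggatGTGaccTATgcccagCTGtgcagc
Nfam1 tail tyrosine: gcagaaTCTgtcTACacgtccCTAcagcgt

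The Tyrobp stretch lies in exons 4 and 5 (chr7:30415664-30417388, plus strand) and the Fcer1g stretch in exons 4 and 5 (chr1:171229883-171230078, minus strand), each with an intron between. The Cd72 stretches lie in exon 1 (chr4:43454492-43454521) and exon 2 (chr4:43454300-43454329) on the minus strand. The Clec12a stretch (chr6:129350427-129350456) and the Clec4a2 stretch (chr6:123123594-123123623) lie in exon 1 on the plus strand. The Pirb stretch is in exon 15 (chr7:3712780-3712809, minus strand), and the Nfam1 stretch spans exons 4 and 5 (chr15:83001490-83010392, minus strand). All are coding. In a tail placed by hydropathy, 10 of 12 inhibitory receptors held the ITIM pattern, all but Cd33 and Cd200r1, as against 2 of 17 activating receptors (Nfam1 and Fcgr1). The Fcgr1 match, at codons 317 to 322, begins inside the hydrophobic stretch, which ends at codon 320. The ITAM pattern was found in the tails of both adaptors and of 0 of 17 activating receptors. The ITIM pattern also matched in the tail of 1 of 2 adaptors, Tyrobp, at codons 90 to 95, which overlap its ITAM at codons 92 to 106. Because such motifs define the roles, these counts describe the lists and do not test them. Anywhere in the protein, 49% of 21531 coding genes held the ITIM pattern and 6.49% the ITAM pattern. Tails alone were not counted over all coding genes, so these shares cannot be set against the tail counts of the members.

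Each gene has 1 value per genotype, and no values per library, so that no overlap of replicates can be given. The unit is not named and was assumed to be TPM (transcript abundance scaled to a fixed total per column). Ranks, sums and ratios between different genes depend on this assumed unit. The log2 change is the deposited one, log2 of (Bub1 cKO + 1)/(Ctrl + 1). The statistic, its standard error (SE) and p-value come from the authors' test, and direction is that of the statistic. Where an interval is given, it is a 95% interval around the statistic times its SE, called the test's own log2 change. The SE and p-value belong to that change, also where they are printed beside the deposited one. Bub1 itself stood at 6.73 TPM (Ctrl) and 5.32 TPM (Bub1 cKO) per the authors' deposited table (adjusted p = 0.985). Which exons were deleted is not given here, so this 3' tag value does not check the labels. Markers of macrophages (7 of 7 listed) and of osteoclasts (8 of 8) were present at a mean of at least 1 TPM. Neutrophil markers, 11 of 12 with a row, summed to 102 TPM in Ctrl against 241 TPM in Bub1 cKO. All 11 statistics were positive, though the log2 change of Ltf was negative, 5 of the genes had a mean under 1 TPM, and Cxcr2 alone passed. Camp, Elane and Retnlg, all at 0 in Ctrl, are among those 5. Erythroid markers, 5 of 7 with a row, summed to 19.6 and 358 TPM with 5 of 5 positive, and 2 of them passed (Hbb-bs and Hbb-bt). In bulk RNA, fewer cells of a type and less RNA per cell cannot be told apart.

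Of the 38 members, 1 passed an adjusted p under 0.05 over the whole table, Cd72, which was lower in Bub1 cKO. Among all genes 0.181% passed in either direction, 0.0688% lower and 0.113% higher. At an unadjusted p under 0.05 there were 5 members lower (Cd72, Nfam1, Clec12a, Ptpn6 and Clec7a) and 1 higher (Clec4n), together 15.8% of the 38, beside 4.81% of all genes (2.46% lower and 2.35% higher). A negative statistic was found in 26 of 38 members, 68.4%, beside 50.1% of all genes. The median log2 change was -0.24 over the members and -0.01 over all genes. Among members that averaged 10 TPM or more, 20 of 25 statistics (80%) were negative, beside 48.9% of the genes at that level. The 26 and the 20 both count Lilrb4a as negative by its symbol row, though its direction depends on the gene model, as given below. The 4.81% above takes in 5101 genes under 1 TPM, where the SE is wide. At 10 TPM or more, 4 of 25 members were lower and 1 higher at an unadjusted p under 0.05, beside 207 and 221 of 5159 genes. Of 7 macrophage markers 5 had a negative statistic, among them Csf1r and Itgam at an unadjusted p under 0.05, while Cd68 was higher at that threshold. Of 8 osteoclast markers 7 had a positive statistic, of which Nfatc1, Ocstamp, Ctsk and Acp5 were higher at an unadjusted p under 0.05, and none of these 15 markers passed the adjusted threshold in the authors' test. Summed levels were 503 and 492 TPM for the macrophage markers and 1967 and 2274 TPM for the osteoclast markers. Cd68, at 260 (Ctrl) and 306 TPM (Bub1 cKO), made up the most of the macrophage sum and went against most of that list. Csf1r was at 116 and 96.7 TPM and Adgre1 at 43.6 and 24.4 TPM. The part of these 15 markers in the members' values was not tested. The members were chosen with earlier results of these data known, and the members' shares describe the list without a test of it.

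**Figure D1:**
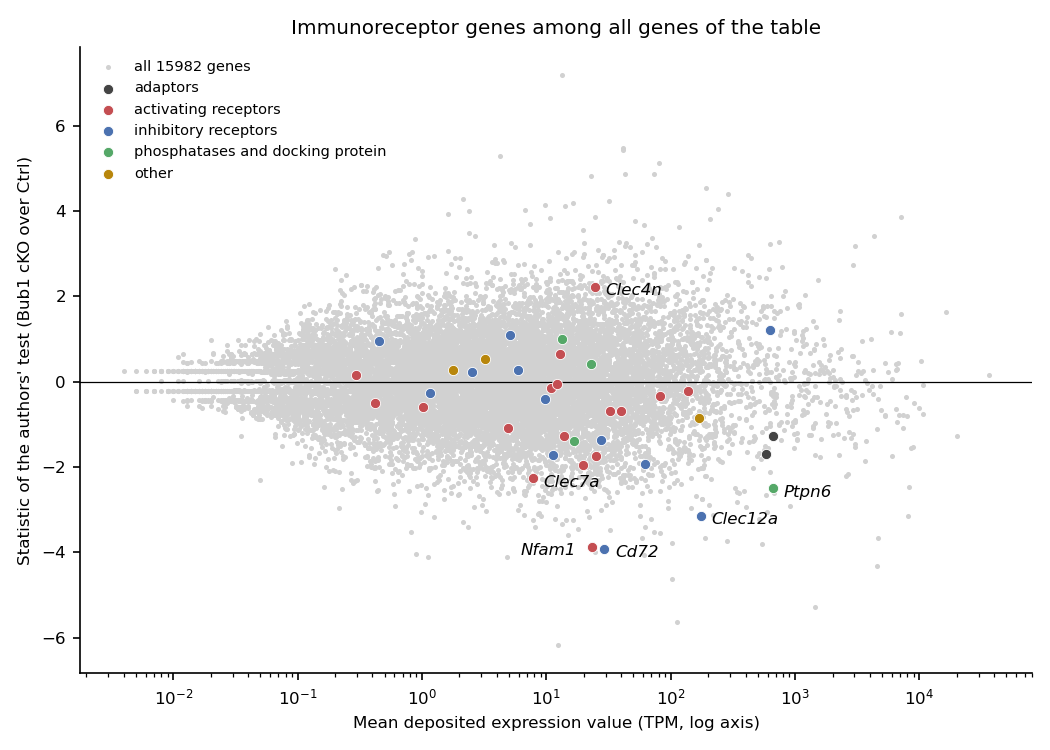
Statistic of the authors' test (Bub1 cKO over Ctrl, vertical axis) against the mean deposited expression value (TPM, log axis) for 15982 genes in grey and the 38 members coloured by role. The 6 named members have an unadjusted p under 0.05, with Clec4n above 0 and the other 5 below.

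Both adaptors were among the most abundant transcripts and differed little. Tyrobp, which encodes DAP12, was at 717 (Ctrl) and 618 TPM (Bub1 cKO) per the authors' deposited table, rank 247 of 15966 symbols by mean level. Its log2 change was -0.21 (SE 0.15, adjusted p = 0.985 in the authors' deposited table), and the interval ran from -0.48 to 0.10. Fcer1g, the Fc receptor gamma chain, was at 629 and 527 TPM per the authors' deposited table, and the log2 change was -0.26 (SE 0.14), with an interval from -0.53 to 0.04. Both values were lower in Bub1 cKO and neither passed the test, and a fall of more than 0.53 for either lies outside the intervals. The ratio of Fcer1g to Tyrobp on the TPM scale was 0.877 in Ctrl and 0.852 in Bub1 cKO.

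Of the 17 activating receptors 14 had a negative and 3 a positive statistic, and none of the 17 passed an adjusted p under 0.05 in the authors' test, while 2 were lower and 1 higher at an unadjusted p under 0.05. The median log2 change was -0.27. Levels ran from 0.294 TPM for Trem1 to 136 TPM for Clec4d in the mean column of the authors' deposited table.

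Among the receptors known to pair with DAP12, Trem2, the lipid-sensing receptor of macrophages and osteoclasts, was at 85.6 (Ctrl) and 77.7 TPM (Bub1 cKO) per the authors' deposited table. Its interval ran from -0.62 to 0.44. Clec5a (MDL-1), a lectin-like receptor of monocytes, was at 23.7 and 15.8 TPM per the authors' deposited table, and the log2 change was -0.56 with an unadjusted p of 0.052 (adjusted p = 0.985). Sirpb1c, an activating relative of the Sirpa receptor, was at 10.5 and 11.1 TPM per the authors' deposited table, and its log2 change (0.08) and statistic (-0.14) have opposite signs. Trem1, an amplifier of inflammation in neutrophils and monocytes, was near 0 in both genotypes, at 0.251 and 0.338 TPM per the authors' deposited table, and Treml4 was at 0.583 and 0.259 TPM. Of these 5 receptors 4 had a negative statistic, and the smallest p was that of Clec5a.

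The receptors known to pair with the gamma chain come from several families. Of 9 such receptors 7 had a negative statistic; Cd300c2, described with them, is known to use either adaptor and was counted with neither set. Clec4n (Dectin-2), which binds fungal mannans, was at 17.9 (Ctrl) and 30.9 TPM (Bub1 cKO) per the authors' deposited table. On the log2 scale the change was 0.76 (SE 0.36), with an unadjusted p of 0.027 while the adjusted p was 0.902 per the authors' deposited table, so that it did not pass. The other lectins of this kind lie beside it on chromosome 6: Clec4d (MCL) was at 139 and 134 TPM and Clec4e (Mincle), a sensor of mycobacterial glycolipid, at 12.4 and 13.3 TPM per the authors' deposited table. Clec4n was the one gene of this trio whose interval, 0.09 to 1.52, left out 0. These lectins are also made by neutrophils, and the sum of neutrophil markers, mostly S100a8 and S100a9, was higher in Bub1 cKO, as given above. The part of neutrophils in these values was not tested.

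Fc gamma receptors bind the constant part of IgG. The activating Fcgr3 was at 43.3 (Ctrl) and 37.0 TPM (Bub1 cKO) per the authors' deposited table, Fcgr4 at 6.29 and 3.50 TPM and the high-affinity receptor Fcgr1 at 1.27 and 0.759 TPM. All 3 values were lower in Bub1 cKO, and the smallest unadjusted p was 0.279. Oscar, the osteoclast-associated receptor for collagen, was at 12.5 and 11.9 TPM per the authors' deposited table, with a statistic of -0.06. Pira2, a paired immunoglobulin-like receptor, was at 28.6 and 21.1 TPM (unadjusted p = 0.081) in the authors' deposited table. The Cd300 family members of this role, which bind membrane lipids, were Cd300c2 at 35.8 and 29.5 TPM and Cd300ld at 16.2 and 11.7 TPM per the authors' deposited table, with an unadjusted p of 0.488 and 0.200.

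The remaining activating receptors, Nfam1 and Clec7a, carry tyrosine motifs in their own tails, though no pair at the ITAM spacing above was found in either, and both had an unadjusted p under 0.05. Nfam1, an immunoreceptor that activates NFAT, was at 26.7 (Ctrl) and 19.7 TPM (Bub1 cKO) per the authors' deposited table (ENSMUSG00000058099.16, chromosome 15, 82992973 to 83033306). Its log2 change was -0.42 (SE 0.16), with an unadjusted p of 0.00011 while the adjusted p was 0.055 per the authors' deposited table. The test's own log2 change was -0.61, with an interval from -0.92 to -0.30. Nfam1 missed the threshold over the whole table. It passed after Benjamini-Hochberg adjustment of the authors' p-values over the 10881 genes of at least 1 TPM (0.0386, with 0.34% of those genes called) or the 7159 of at least 5 TPM (0.0303, with 0.531% called). Clec7a (Dectin-1), the receptor for fungal beta-glucan, was at 11.0 and 4.68 TPM per the authors' deposited table, and the log2 change was -1.08 (SE 0.53), with an unadjusted p of 0.024 and an adjusted p of 0.874. Its interval was wide, from -2.23 to -0.16.

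**Figure D2:**
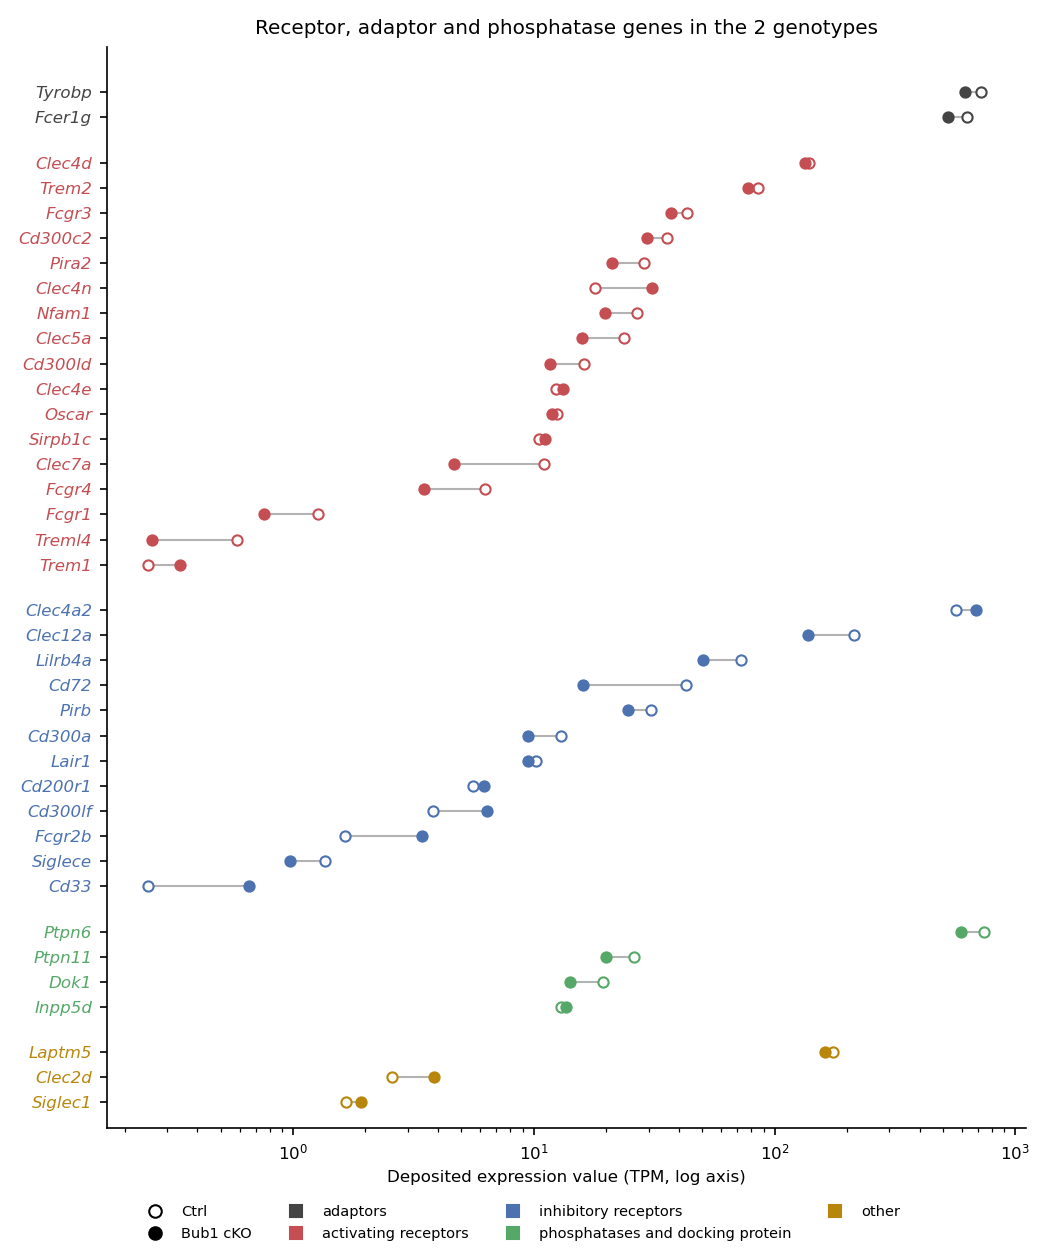
Deposited expression value (TPM, log axis) of the 38 members in Ctrl (open circles) and Bub1 cKO (filled circles), grouped by role and ordered by mean level, with 1 value per gene and genotype. Tyrobp, Fcer1g, Ptpn6 and Clec4a2 are the top 4 in both genotypes, and Cd72 shows the widest step among members above 10 TPM, from 42.7 to 15.9 TPM.

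Among the inhibitory receptors Cd72 fell in Bub1 cKO. Cd72 is a C-type lectin with an ITIM that recruits SHP-1 and is best known as a brake on B cells. It was at 42.7 (Ctrl) and 15.9 TPM (Bub1 cKO) per the authors' deposited table (ENSMUSG00000028459.11, chromosome 4, 43446462 to 43454628 on the minus strand). The log2 change was -1.37 (SE 0.35), with an unadjusted p of 9e-05 while the adjusted p was 0.049 per the authors' deposited table, and the interval ran from -2.07 to -0.69. Of 5 B cell markers only Cd79b and Pax5 have a row, and they summed to 0.534 TPM (Ctrl) and 0.437 TPM (Bub1 cKO), so that B cell transcripts were near 0 in both. Cd72 overlaps Tesk1, on the opposite strand, by 1603 bases. Tesk1 was at 12.4 and 14.9 TPM per the authors' deposited table, and the sources used here do not say whether counting used strand.

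Clec12a, an ITIM lectin that senses uric acid crystals, was at 213 (Ctrl) and 137 TPM (Bub1 cKO) per the authors' deposited table. On the log2 scale the change was -0.63 (SE 0.16), with an unadjusted p of 0.002 while the adjusted p was 0.299 per the authors' deposited table, so that it did not pass. The test's own log2 change of Clec12a was smaller, -0.49, and its interval, -0.80 to -0.19, left out 0. Clec4a2 (DCIR) was the most abundant of the 12 inhibitory receptors and had the opposite sign, with 568 and 685 TPM per the authors' deposited table, and the log2 change was 0.27 (adjusted p = 0.985). The test's own change of Clec4a2 was smaller, 0.17, with an interval from -0.10 to 0.43.

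Pirb, the inhibitory partner of Pira2, was at 30.8 (Ctrl) and 24.6 TPM (Bub1 cKO) per the authors' deposited table, and Cd300a, a receptor for phosphatidylserine, at 13.0 and 9.47 TPM. Lair1, the inhibitory collagen receptor, was at 10.2 and 9.46 TPM per the authors' deposited table. None of these passed, with unadjusted p of 0.174, 0.084 and 0.682. The low-level members had wide errors: Cd300lf, which overlaps Rab37 on the opposite strand (0 and 0.111 TPM), was at 3.82 and 6.37 TPM, Cd200r1 at 5.62 and 6.19 TPM, Fcgr2b, the inhibitory Fc receptor, at 1.65 and 3.44 TPM, Siglece at 1.36 and 0.973 TPM and Cd33 at 0.251 and 0.654 TPM per the authors' deposited table. Their SE ran from 0.60 for Cd200r1 to 1.42 for Siglece, so that a difference of 1 on the log2 scale was not detectable at this precision.

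For Lilrb4a (gp49B), an inhibitory receptor of macrophages and mast cells, the direction depends on the gene model. The row with this symbol is ENSMUSG00000062593.17, at 72.7 (Ctrl) and 50.4 TPM (Bub1 cKO) per the authors' deposited table (log2 change -0.52, unadjusted p = 0.054). GENCODE M21 gives the name Lilrb4a to another gene, ENSMUSG00000112148.1, which the authors' deposited table calls Lilrb4 and which stood at 68.7 and 102 TPM (log2 change 0.57, SE 0.20, unadjusted p = 0.004, adjusted p = 0.445). The first model spans 51480612 to 51496613 on chromosome 10 and holds the second, 51490956 to 51496611, and also Lilr4b, an activating relative, 51480632 to 51486703, all on the plus strand. Lilr4b was at 79.4 and 56.6 TPM per the authors' deposited table. The 3 models together summed to 221 TPM (Ctrl) and 209 TPM (Bub1 cKO), so that the split of reads among near-identical, overlapping models is uncertain and no direction is drawn for Lilrb4a.

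Among the 12 inhibitory receptors 7 statistics were negative and 5 positive, with a median log2 change of -0.18, beside 14 negative and 3 positive with a median of -0.27 for the 17 activating receptors. The difference between the roles was not tested, and the order of the medians depends on the genes kept. Among genes averaging 5 TPM or more the medians were -0.22 (activating) and -0.31 (inhibitory), and at 10 TPM or more -0.18 and -0.47, with 10 of 12 and 5 of 6 statistics negative. With the Lilrb4a value taken by gene ID the inhibitory median turned to 0.01, with 6 of 12 negative. That swap was made on the 12 receptors without a level floor. The other inhibitory counts here take the symbol row of Lilrb4a (log2 change -0.52) as negative, at both floors and in the shorter list that follows. No direction is drawn for that gene, so these counts and medians hold for the symbol row only. Without Cd33, Cd200r1 and Cd300lf, of which the first lacks a classical ITIM in mouse, the second has none and the third can also activate, 7 of 9 were negative with a median of -0.31. Levels of activating receptors summed to 471 TPM (Ctrl) and 424 TPM (Bub1 cKO), inhibitory ones to 964 and 950 TPM. Clec4a2, at 568 and 685 TPM, made up the most of the inhibitory sum, while 7 of the 12 inhibitory log2 changes were negative. That sum therefore follows Clec4a2 and does not describe the other inhibitory receptors.

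**Figure D3:**
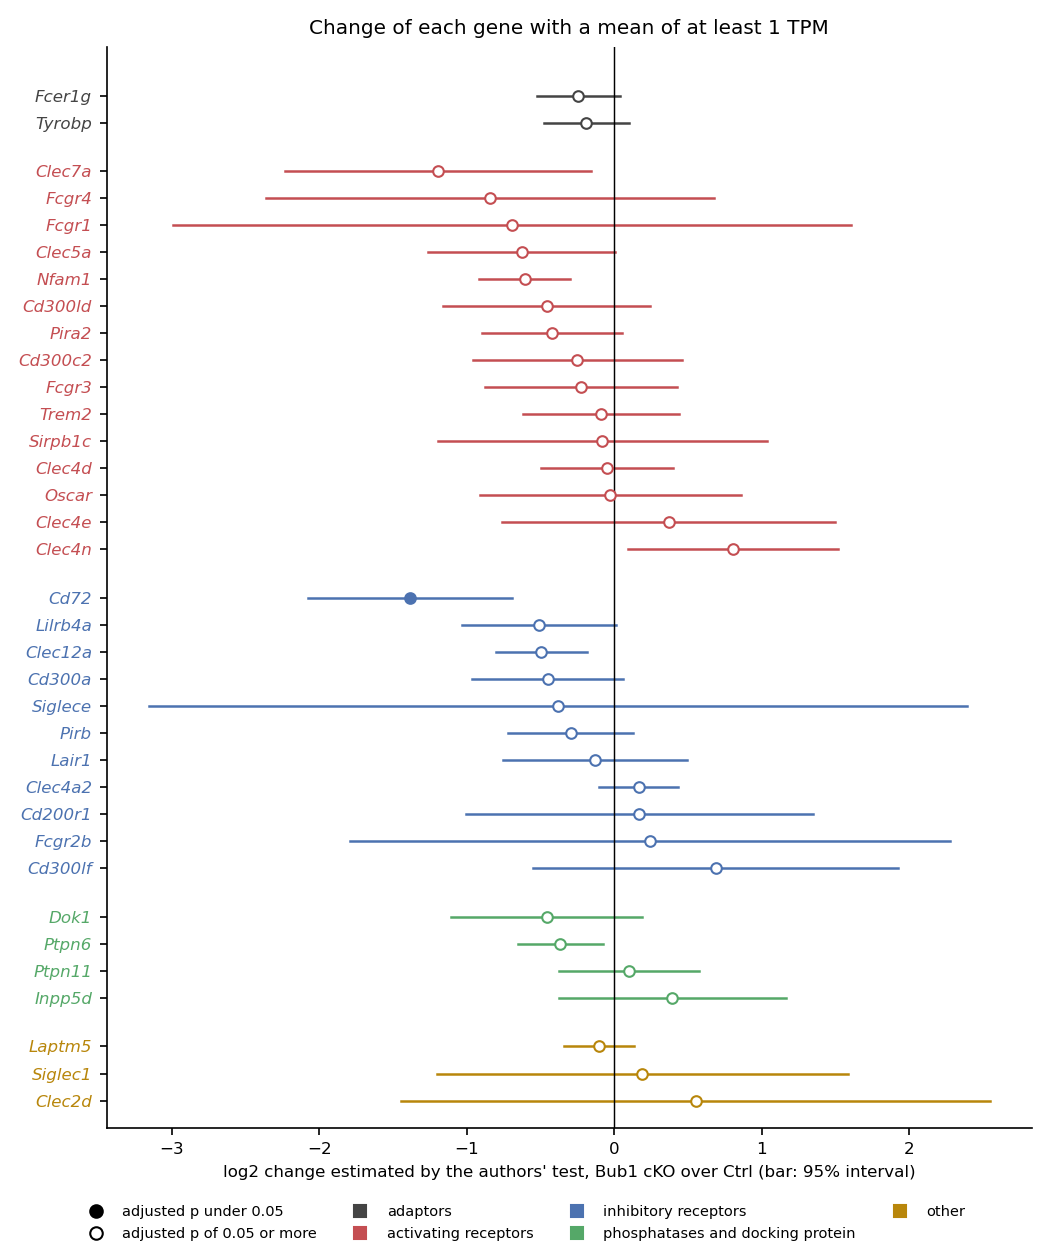
The test's own log2 change (Bub1 cKO over Ctrl) with its 95% interval for the 35 members with a mean of at least 1 TPM, grouped by role. Cd72 is the one filled point, past an adjusted p of 0.05, and the intervals of Nfam1, Clec7a, Clec12a, Ptpn6 and Clec4n also leave out 0.

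Activating and inhibitory genes of one family were also set side by side. The ratio of Pirb to Pira2 on the TPM scale was 1.08 in Ctrl and 1.17 in Bub1 cKO, and that of Cd300a to Cd300ld 0.806 and 0.812. In these pairs both members had lower values in Bub1 cKO and the ratios were close. The ratio of Fcgr2b to Fcgr3 was 0.0381 and 0.0930, but it rests on an Fcgr2b level under 4 TPM with a statistic of 0.23. Pira2 and Pirb share long near-identical stretches, so that reads could be split between them.

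Several members lie in clusters of related genes, a grouping that was chosen after the values were seen. In the leukocyte receptor complex on chromosome 7, all of Oscar, Pirb, Pira2 and Lair1 had a negative statistic, with log2 changes from -0.42 to -0.06. In the Cd300 cluster on chromosome 11, 3 of 4 were negative, and the exception was Cd300lf. In the Clec4 cluster on chromosome 6, from Clec4a2 (start 123106428) to Clec4e (start 123281789), 3 of 4 were positive. Clec12a (start 129342691) and Clec7a (start 129461591), farther along chromosome 6, were lower at an unadjusted p under 0.05, and their neighbour Clec2d (2.57 and 3.86 TPM per the authors' deposited table) was not.

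Of the effectors that ITIMs recruit, Ptpn6, which encodes SHP-1, was at 742 (Ctrl) and 592 TPM (Bub1 cKO) per the authors' deposited table. On the log2 scale the change was -0.33 (SE 0.15), with an unadjusted p of 0.013 while the adjusted p was 0.760 per the authors' deposited table. The interval of Ptpn6, -0.65 to -0.08, left out 0 but the gene did not pass over the table. Ptpn11 (SHP-2) was at 26.1 and 19.9 TPM per the authors' deposited table, and the log2 change was -0.37, while its statistic, 0.41, has the opposite sign. Inpp5d (SHIP1), the lipid phosphatase that restrains osteoclast formation, was at 13.0 and 13.6 TPM per the authors' deposited table, and the docking protein Dok1 at 19.5 and 14.1 TPM. On the TPM scale Ptpn6 exceeded Ptpn11 by 28.5-fold in Ctrl and 29.7-fold in Bub1 cKO.

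The members outside these roles showed no difference past the test. Laptm5, a lysosomal protein that lowers immunoreceptor levels at the surface, was at 175 (Ctrl) and 162 TPM (Bub1 cKO) per the authors' deposited table, with an interval from -0.34 to 0.14. Siglec1 (sialoadhesin), a sialic acid receptor of tissue macrophages without an ITIM, was at 1.66 and 1.91 TPM per the authors' deposited table.

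The signalling genes behind the receptors were read from a list of 41 kinases, linkers and other pathway genes, all with a row. By the authors' test 0 of 41 passed an adjusted p under 0.05. In each direction 2 genes had an unadjusted p under 0.05. Of the 41, 26 had a negative statistic (63.4%, beside 50.1% of all genes), with a median log2 change of -0.18. Among the 25 that averaged 10 TPM or more, 14 statistics were negative (56%, beside 48.9% at that level) and the median was -0.04. The summed level was 1260 TPM (Ctrl) and 1391 TPM (Bub1 cKO). Lcp2, at 298 and 420 TPM (unadjusted p = 0.18 in the authors' test), made up the largest part of this sum and of its rise. Of the 41 log2 changes 24 were negative. Higher at the unadjusted threshold were Lat2 (NTAL), a membrane linker, at 95.4 (Ctrl) and 127 TPM (Bub1 cKO) per the authors' deposited table (unadjusted p = 0.020), and Src, the kinase osteoclasts need to resorb bone, at 7.91 and 12.8 TPM (unadjusted p = 0.047). Lower were Prkcd, the kinase that phosphorylates Card9 downstream of lectins, at 29.9 and 20.0 TPM per the authors' deposited table (unadjusted p = 0.021), and the adaptor Sh3bp2 at 25.0 and 21.4 TPM (unadjusted p = 0.031). Adjusted p for these 4 ran from 0.857 to 0.985.

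The most abundant genes of the pathway list did not pass either. Lcp2 (SLP-76), the linker that assembles phospholipase C gamma with Vav, was at 298 (Ctrl) and 420 TPM (Bub1 cKO) per the authors' deposited table, and its interval, around 0.38, took in 0. Grb2 was at 96.1 and 109 TPM, the phosphatases Ptpn22 at 92.4 and 90.0 TPM and Ptprc (CD45) at 57.4 and 50.5 TPM, and Hcst (DAP10), an adaptor that works beside DAP12, at 58.7 and 42.5 TPM per the authors' deposited table. Syk, named for its place in the pathway and not by the rule, was at 9.09 and 7.92 TPM per the authors' deposited table, with a statistic of -0.52.

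**Figure D4:**
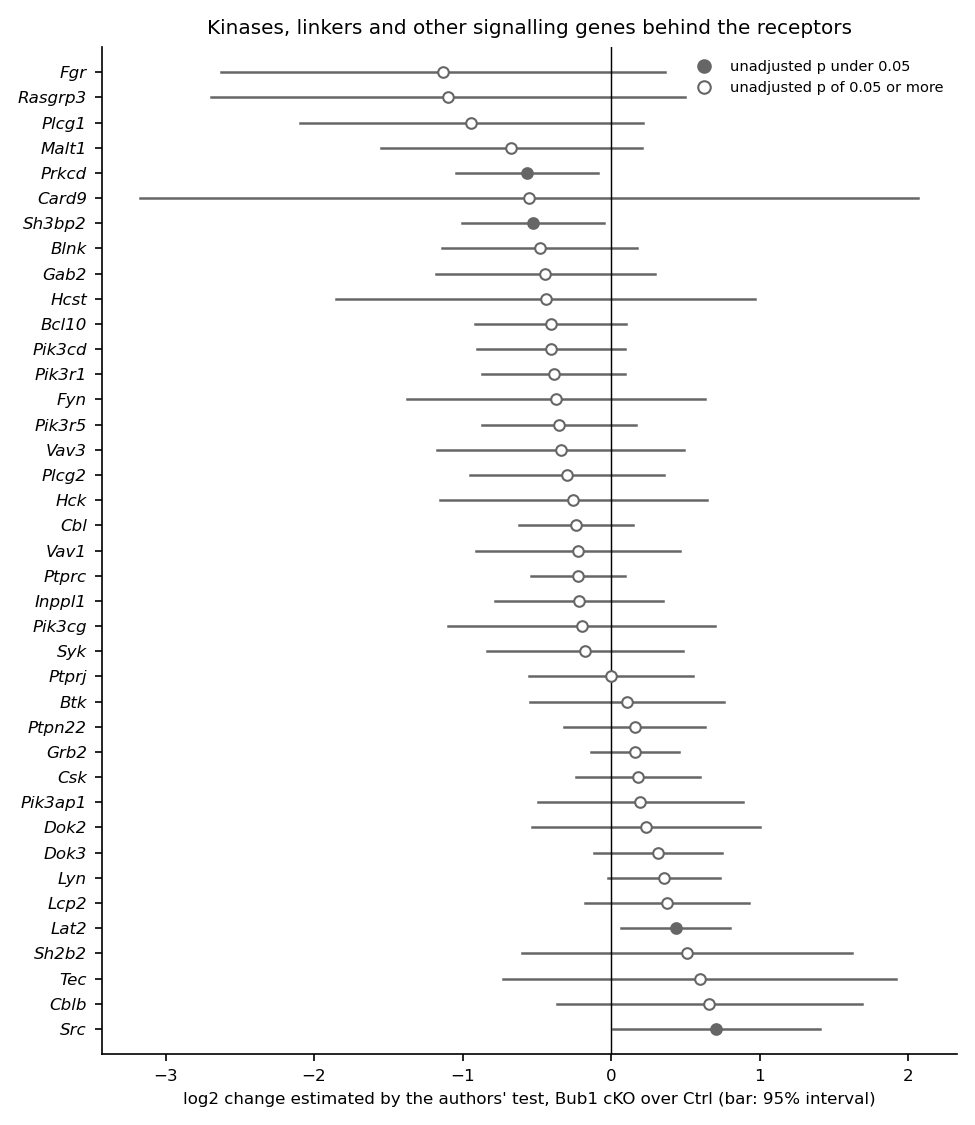
The test's own log2 change (Bub1 cKO over Ctrl) with its 95% interval for the 39 pathway genes that averaged 1 TPM or more. The 4 filled points have an unadjusted p under 0.05, Lat2 and Src to the right of 0 and Prkcd and Sh3bp2 to the left, and none of the 39 passed an adjusted p under 0.05.

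The promoters were read for a sequence feature tied to the myeloid lineage, and the members were themselves chosen as genes of myeloid cells. PU.1, the transcription factor that sets up the myeloid lineage, binds a purine-rich box with the core GAGGAA. In windows from 250 bases before to 50 bases after the transcription start (RefSeq, GRCm38.p6), this core stood on either strand in 28 of 36 windows of 32 members (77.8%), beside 28.3% of 32851 windows of all genes. Some windows of a gene overlap. By gene, 26 of 32 members (81.2%) had at least 1 match, beside 31.3% of 27025 genes. Those genes were taken whether or not macrophages express them, and no share over macrophage-expressed genes was computed. The part of the choice of myeloid genes in the members' share was not tested. Near-identical windows of paralogs were counted apart, such as those of Pira2 and Pirb with 3 matches each. Matches stood in 17 of 20 windows of activating receptors and 8 of 10 of inhibitory ones. The windows of Fcer1g, Ptpn6 and Clec4a2, 3 of the most abundant members, held 0. Tyrobp, Clec4n, Cd200r1, Lilrb4a, Siglec1 and Dok1 had no window and were not read. The windows of the 3 receptors with the smallest p and of Pirb are shown, with matches in capitals (GAGGAA, or TTCCTC where the core is on the other strand).
Cd72: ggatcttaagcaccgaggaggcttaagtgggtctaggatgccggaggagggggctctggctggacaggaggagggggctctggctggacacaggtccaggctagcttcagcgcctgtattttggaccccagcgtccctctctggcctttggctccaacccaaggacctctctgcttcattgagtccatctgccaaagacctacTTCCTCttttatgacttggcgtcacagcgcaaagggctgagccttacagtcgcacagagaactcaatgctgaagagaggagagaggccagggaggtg
Nfam1: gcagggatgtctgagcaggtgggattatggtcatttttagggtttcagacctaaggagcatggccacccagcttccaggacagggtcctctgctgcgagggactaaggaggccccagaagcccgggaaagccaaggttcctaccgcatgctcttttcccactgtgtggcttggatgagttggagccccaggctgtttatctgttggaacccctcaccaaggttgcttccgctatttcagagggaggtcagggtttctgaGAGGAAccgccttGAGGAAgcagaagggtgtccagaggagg
Clec12a: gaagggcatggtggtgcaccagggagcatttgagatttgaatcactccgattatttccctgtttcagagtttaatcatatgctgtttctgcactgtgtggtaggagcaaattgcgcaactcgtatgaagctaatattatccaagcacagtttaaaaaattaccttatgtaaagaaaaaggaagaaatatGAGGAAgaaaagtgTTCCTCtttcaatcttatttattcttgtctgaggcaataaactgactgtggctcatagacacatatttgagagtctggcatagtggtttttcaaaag
Pirb: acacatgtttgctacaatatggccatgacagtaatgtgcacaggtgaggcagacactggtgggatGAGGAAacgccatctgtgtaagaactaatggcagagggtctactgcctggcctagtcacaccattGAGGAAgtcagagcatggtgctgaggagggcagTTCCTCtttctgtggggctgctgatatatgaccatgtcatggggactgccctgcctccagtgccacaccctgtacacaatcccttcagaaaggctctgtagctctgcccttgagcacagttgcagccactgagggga

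These windows lie at chr4:43454577-43454876 (Cd72, minus strand), chr15:83033348-83033647 (Nfam1, minus strand, the farthest upstream of 3 starts), chr6:129349994-129350293 (Clec12a, plus strand) and chr7:3720333-3720632 (Pirb, minus strand). Cd72 held 1 match, Nfam1 2, Clec12a 2 and Pirb 3, and the other 2 windows of Nfam1 held 0. Among these 4 genes Cd72 alone passed the test. A match describes letters in the window and not binding.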

How the data were processed

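RNA from 6 samples (3 Ctrl, 3 Bub1 cKO) was measured with 3' tag libraries. The authors deposited 1 comparison table with 1 value per gene and genotype. Its first line names RaNA-seq, per the file headers, while aligner, genome build, annotation and test were not given in the sources used here. No unit is named for the deposited expression values, and TPM was assumed since the Ctrl column sums to 999891 and the Bub1 cKO column to 999954. TPM and CPM cannot be told apart by this. With a pseudocount of 1 on both TPM values, the deposited log2 change was recomputed to within 0.002 for all 15982 genes. It understates changes of low genes. The deposited statistic and SE were taken as scores of the authors' test. The statistic and the log2 change have opposite signs in 1519 genes. The deposited p-value and adjusted p were used over the whole table. Depth is unknown, so the SE stands for precision: its median was 0.186 for genes of at least 100 TPM and 3.43 under 1 TPM.

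Rows were matched by symbol, keeping the highest mean. The design had assumed values per library, and the authors' test was used in their place. The members, roles and lists were chosen with earlier results of these data known. Full statistics were given for members with an unadjusted p under 0.05 and both levels for members of at least 10 TPM; of the pathway list, genes with an unadjusted p under 0.05 and the 6 with the highest mean. Tails were placed by a hydropathy window of 19 residues above 1.6 in the principal transcript. Gene IDs matched GENCODE M21 in 15902 of 15982 rows without the version. The Benjamini-Hochberg step was tested on simulated data. Python 3.11.15, pandas 2.3.3 and numpy 2.4.6 were used.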

Additional observations from a re-analysis of the deposited data

How the results depend on the processing

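The count of members past the threshold, 1 over the whole table, was 6 at an unadjusted p under 0.05 and 2 (Cd72 and Nfam1) with p adjusted over expressed genes alone, at least 1 TPM or at least 5 TPM, where fewer genes are tested. The count of pathway genes, 0, was 4 at an unadjusted p under 0.05. The median log2 change of inhibitory receptors, -0.18, was -0.31 at a mean of at least 5 TPM and also in the list without Cd33, Cd200r1 and Cd300lf, -0.47 at 10 TPM or more, -0.080 with a pseudocount of 5 and 0.0125 with Lilrb4a taken by gene ID. That of activating receptors, -0.27, was -0.18 at 10 TPM or more and -0.13 with a pseudocount of 5. For pathway genes the median of -0.18 was -0.058 at 5 TPM or more and -0.038 at 10 TPM or more, where 14 rather than 26 statistics were negative because fewer genes are kept. The gene ID was swapped only in the inhibitory list without a floor, and the other settings keep the symbol row of Lilrb4a. The gene ID, the 10 TPM floor and both floors of the pathway genes were chosen after seeing the data. With pseudocounts of 0.1 and 5, 38 of 38 members moved by less than their SE; with the test's own log2 change 36 did, and Nfam1 (-0.61) and Ptpn11 (0.10) did not. No paired analysis was possible because the table holds no values per library, and leaving out a library could not be run for the same reason.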

Other observations

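Relatives of the members that were not on the list were also read, chosen after their values were seen, and only some of them are given here. Clec4a3 and Clec4a1, paralogs of Clec4a2, had values of the opposite sign to it: in the authors' deposited table Clec4a3 was at 74.5 (Ctrl) and 43.3 TPM (Bub1 cKO) (log2 change -0.77, statistic -3.65 with SE 0.29, adjusted p = 0.095) and Clec4a1 at 31.8 and 19.1 TPM (adjusted p = 0.985). Clec4b1, of the same cluster, had a positive statistic, at 7.13 and 16.5 TPM per the authors' deposited table (unadjusted p = 0.161). How the counting shared reads among these paralogs was not tested. Cd200, the ligand of the inhibitory receptor Cd200r1, was at 33.4 and 106 TPM per the authors' deposited table (log2 change 1.64, unadjusted p = 0.007, adjusted p = 0.624), beside 5.62 and 6.19 TPM for Cd200r1. The test's own log2 change of Cd200 was smaller, 1.29 (SE 0.48), with an interval from 0.35 to 2.23. Lilra6, a relative of Pira2, was at 10.1 and 5.23 TPM per the authors' deposited table (unadjusted p = 0.067). Sirpa, the ITIM receptor for Cd47 and a relative of Sirpb1c, was at 122 and 81.3 TPM per the authors' deposited table (log2 change -0.58, SE 0.15, unadjusted p = 0.00016, adjusted p = 0.067), the smallest p among the relatives read. Among the others read, Cd300lb, a relative of Cd300ld, was at 24.4 (Ctrl) and 24.9 TPM (Bub1 cKO). Gm14548, a relative of Pira2, was at 5.5 and 6.3 TPM, and Cd200r4, a relative of Cd200r1, at 5.8 and 3.9 TPM. None of the relatives read passed an adjusted p under 0.05 in the authors' test.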
